A study of Mus musculus with 6 samples.

Results

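The tissue between the forming digits of the embryonic mouse limb was represented by 2 of the 6 arrays of this series, 1 of Tgfbr2Prx1KO mutant tissue and 1 of control tissue. The pair was chosen by the sample titles, and it is described here across the 17799 genes, of 19512 named on the array, whose signal was well above background on both arrays. The tissue came from C57BL/6 embryos at stage E14.5. The study took autopods, the hand and foot plates, from 2 control embryos and 2 mutant littermates, cut frozen sections, collected the tissue by laser-capture microdissection and amplified its RNA with the SuperAmp procedure before labelling. By convention the mutant's name stands for deletion of Tgfbr2 by a recombinase under the Prx1 promoter, which is active in limb mesenchyme and not in the ectoderm that covers it, so that the epidermis, the vessels and the blood of the mutant would still carry the gene. The genotype behind the word control, the embryos and the number of cells behind each array, and whether hand or foot plates were used are not known from the labels.

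There was 1 array a side, so the differences between the 2 arrays have no replicate check, and p-values were not computed. The control array lay on 1 slide and the mutant array on another, and genotype and slide cannot be told apart in this pair. The title of the mutant sample spells the genotype Tbr2Prx1KO and its genotype label spells it Tgfbr2Prx1KO. The free-text descriptions of both interdigital samples name irradiated human blood, while their titles, organism and source name mouse limb tissue, and the titles were followed.

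The receptor encoded by Tgfbr2 binds TGF-beta ligands at the cell surface and, with its partner receptor, passes the signal to SMAD proteins in the nucleus. In the limb this pathway is known for its part in tendon, joint and skeletal matrix formation. Interdigital mesenchyme expresses BMP ligands, retinoic acid genes and posterior Hox genes, and much of it is later removed by programmed cell death, which frees the digits. A thin, stratifying epidermis lies directly over it.

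Levels are log2 signals relative to the 75th percentile of each array, so that 0 is that percentile, and each difference is the mutant level minus the control level. These arrays had the highest shares of spots well above background in the series, 88.3% on the control array and 87.0% on the mutant array. Of the 17799 genes, 1814 (10.2%) were at least 2-fold higher and 2816 (15.8%) at least 2-fold lower on the mutant array. The median difference of all genes was -0.17 and the SD was 1.12. At the 4-fold level 3.37% of the genes were higher and 3.85% lower. Only 112 genes were at least 16-fold higher and 58 at least 16-fold lower. A further 271 genes were well above background on the mutant array only, 443 on the control array only, and 999 on neither.

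The spread between the arrays depended on the level of the genes. The SD of the differences was 1.40 among the dimmest 3560 genes by mean level and 0.64 among the brightest 3560. Of the dimmest, 33.1% were at least 2-fold lower and 10.8% higher, while of the brightest 3.06% were lower and 4.33% higher. The excess of lower over higher genes therefore lay mostly among dim genes. Of the genes past 2-fold in either direction 39.2% were higher, and this share was 49.6% with quantile normalization and 51.3% with the deposited table of ratios, which also moved the median of all genes to -0.01. Apart from repeated spots of some probes, different probes of 1 gene were the repeated measurements within this pair. Among 1593 genes past 2-fold with at least 2 measured probes, the next probe was past 2-fold in the same direction in 36.2% and in the opposite direction in 11.6%. The lowest signal well above background was 12.2 on the control array and 9.91 on the mutant array. The 75th percentiles were 1815 and 2195. Large folds of genes that were very dim on 1 array rest on signals near that limit, so their size is uncertain. A gene read by 1 probe on 2 arrays is thus an uncertain value, and the text below says where the probes of a named gene went different ways.

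**Figure D1:**
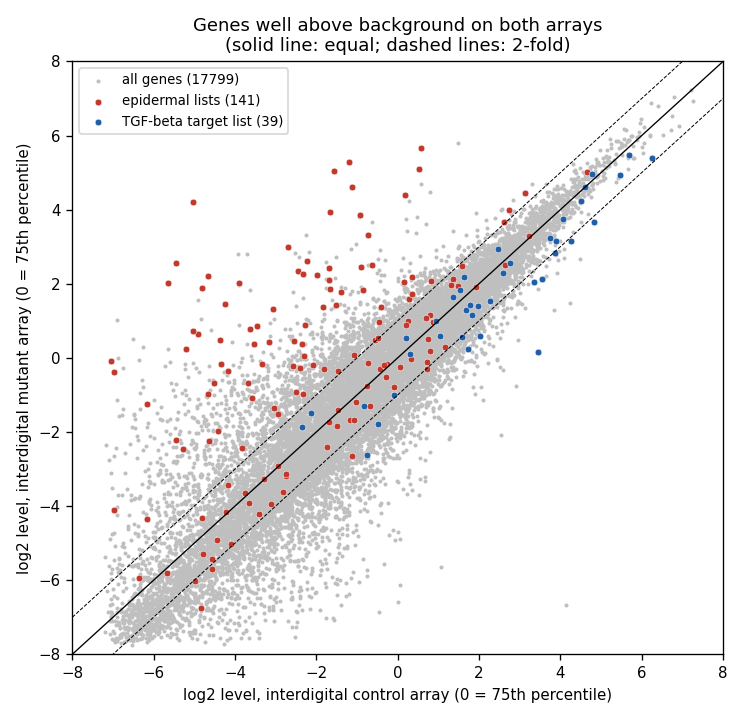
Level of each gene on the control array (horizontal axis) and on the mutant array (vertical axis), log2 relative to the array's 75th percentile, with 1 point per gene measured on both arrays. Points of the epidermal lists lie far above the line of equal levels, and the TGF-beta target list lies on or below it, with Aspn the farthest below at 3.46 and 0.16.

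Genes known from interdigital mesenchyme were measured on both arrays. Their list had 29 genes well above background on each, and 28 or 29 on each array of the other tissues, so it does not set this tissue apart from them. Hoxd13, a Hox gene of the distal limb, had a level of 3.21 on the control array and 2.91 on the mutant array. Prrx1, whose promoter gives the recombinase its name, had levels of 2.05 and 2.32 at its brightest probe, while other probes ranged down to a difference of -2.31. Rarb, a retinoic acid receptor, had 0.11 and 0.42, Msx1, a BMP-responsive homeobox gene, 0.64 and 0.08, and Bmp2 -1.20 and -1.36. Of 29 measured genes in the list for interdigital mesenchyme and its cell death, 2 were at least 2-fold higher and 3 lower, against 10.2% and 15.8% of all genes. The list median was -0.14, beside -0.17 for all genes, and turned to 0.07 when both arrays had to be at or above the median of detected genes. The higher members were Mmp11, a matrix metalloproteinase gene (-0.81 and 0.90, 3.28-fold), and Bmp7, a BMP ligand (-0.31 and 1.35, 3.17-fold, with both probes going the same way). The lower members were Adamts9, a versican-cleaving protease gene (1.44 and -0.52, 3.88-fold), Sall1, a zinc finger gene of limb patterning (-0.30 and -2.15, 3.60-fold), and Bmp5, another BMP ligand (-0.51 and -2.27, 3.37-fold).

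Tgfbr2 itself was read by 3 probes on chromosome 9, in positions for which the files name no build. At 115760364 to 115760423 its level was 2.49 on the control array and 1.91 on the mutant array (1.49-fold lower). At 115782405 to 115782464 it was 0.45 and 0.52 (1.05-fold higher). The third probe, at 115803054 to 115803113, read -3.40 and -6.99 (12.1-fold lower) and was the dimmest. The probes did not go the same way. The deleted stretch of Tgfbr2 is not named in the labels, and only a probe inside it could check the deletion.

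Genes of the epidermis made up a large share of the genes with the largest higher values on the mutant array. Over 9 lists of epidermal genes, 156 genes were on the array and 141 were measured on both arrays. Of these, 82 (58.2%) were at least 2-fold higher and 5 were lower, and 33 were at least 16-fold higher. The median difference was 1.39, beside -0.17 for all genes. Another 9 were well above background on the mutant array only, 2 on the control array only and 4 on neither. Of the 112 genes of the whole array that were at least 16-fold higher, 33 (29.5%) belonged to these lists, which make up 0.792% of the measured genes. None of the 58 genes at least 16-fold lower did. Where both arrays had to be at or above the median of detected genes, which removes by construction the genes that were dim on the control array, 17 members were higher and the median was 0.62.

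All 3 keratin genes of the basal layer were higher. Krt5 went from -2.44 on the control array to 2.34 on the mutant array (27.5-fold), its partner Krt14 from 0.17 to 4.40 (18.7-fold), and Krt15 from -1.20 to 5.29 (89.9-fold). Of the keratins above the basal layer and in periderm, 5 of 12 were higher and 1 was lower. Krt10 and Krt1, the keratins of differentiating layers, went from -1.56 to 5.05 (97.9-fold) and from -1.13 to 4.62 (54.0-fold), and Krt13 from 0.59 to 5.65 (33.5-fold). The other Krt1 probe differed by only 0.11. Not every keratin followed. Krt16 and Krt17, keratins of stressed or proliferating epidermis, stayed within 2-fold. Krt6a and Krt6b, of the same list, were higher, with differences of 4.43 and 4.79. Krt8, Krt18 and Krt19 of simple epithelia stayed within 2-fold, while Krt7 was 3.71-fold higher and Krt79 2.87-fold lower.

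The cell adhesion genes of the epidermis fall into 3 lists. In the desmosome list 9 of 11 measured genes were higher and 0 lower (median 2.69). Dsp, which encodes desmoplakin and links desmosomes to keratin filaments, had the largest higher value of any measured gene, from -5.03 to 4.20 (603-fold), and its other measured probe differed by 6.52. The plakophilin genes Pkp1 and Pkp3 were 103-fold and 23.9-fold higher, and Perp, a desmosomal membrane protein gene, 48.5-fold. Dsc3, a desmosomal cadherin gene, was well above background on the mutant array only and at least 130-fold higher. Dsg3, a cadherin gene of the same family, and Pkp2 were 1.81-fold and 1.86-fold lower. Among 16 junction genes 8 were higher and 1 lower (median 0.91). Cdh1, the cadherin gene of epithelia, was well above background on the mutant array only and at least 288-fold higher, and Epcam, an epithelial adhesion gene, went from -2.69 to 2.98 (51.2-fold). Cdh3, the placental cadherin gene, read 1.91 on both arrays. For hemidesmosomes and the basement membrane 9 of 17 genes were higher and 1 lower (median 1.01). Col17a1, a collagen of hemidesmosomes, was 28.6-fold higher and the laminin gene Lamb3 was 20.8-fold higher. Frem2, which encodes a protein that anchors the epidermis to the dermis, went from -7.05 to -0.09 (125-fold). Its control level was close to the lowest signals that passed the background mark. The integrin genes Itga6 and Itgb4 were within 2-fold at their brightest probes, and other probes of Itgb4 ranged up to a difference of 2.87.

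In the cornified envelope list, which holds barrier genes of the outer layers, 20 of 30 genes were higher and 1 was lower (median 1.43). Hrnr, the hornerin gene, went from -5.64 to 2.02 (202-fold), although its other probe differed by 1.39. Casp14, a caspase of terminal differentiation, went from -4.92 to 0.63 (47.0-fold), Krtdap, a keratinocyte differentiation gene, from 0.52 to 5.11, and Lor, which encodes loricrin, from -4.35 to -0.16 (18.3-fold). The lipoxygenase gene Alox12b was 117-fold higher at its brightest probe and differed by -0.40 at the other. Ivl, the involucrin gene, and Sprr2d, a small proline-rich envelope gene, stayed within 2-fold at -3.65 and -3.93, and at -4.10 and -5.02. Flg, the filaggrin gene, was well above background on the control array only.

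Regulators of epidermal fate were among the higher genes. Of 22 measured transcription factors 13 were higher and 0 lower (median 1.88). Trp63, the master regulator of stratified epithelium, was not well above background on the control array at its brightest probe and had a level of 0.88 on the mutant array, at least 274-fold higher, and the 1 probe measured on both arrays differed by 2.08. Grhl1, a grainyhead factor of desmosomal genes, was at least 412-fold higher. Zfp750, a differentiation factor, went from -3.89 to 2.02 (60.4-fold), Barx2, a homeobox gene, from -4.25 to 1.45 (52.0-fold), and Gata3 and Tfap2c were 14.2-fold and 11.5-fold higher. In the list of epidermal regulators and signals 14 of 25 were higher and 1 lower (median 1.32). Ripk4, a kinase gene of keratinocyte differentiation, went from -5.45 to 2.55 (256-fold), and Fermt1, an integrin activator of keratinocytes, from -5.20 to 0.23 (43.0-fold). Genes of the apical ectodermal ridge, the signalling epithelium at the limb tip, did not follow as a group, with 2 of 10 higher and 2 lower. Fgf8, the ligand that defines the ridge, read 3.83 on the control array and 3.88 on the mutant array, while Sp6 was 5.66-fold higher and Sp8 at least 30.5-fold higher.

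The summed level of the 156 epidermal genes, in multiples of each array's 75th percentile, was 133 on the interdigital control array and 568 on the mutant array, a ratio of 4.26. The mutant arrays of the other tissues were higher than their controls too, with 930 against 187 in the interzone and 778 against 513 in the growth plate. The interdigital control array thus had the lowest sum of the 6, and the interdigital mutant array had the lowest of the 3 mutant arrays. Of the defining epidermal markers, Cdh1 and Trp63 were not well above background on the control array at their brightest probe, and Krt5, Krt14, Krt15, Krt1, Krt10, Epcam, Dsp and Perp were measured on both arrays. In bulk tissue, fewer cells of a type and less RNA per cell cannot be told apart. The part of epidermal RNA in the other differences of this pair was not tested.

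**Figure D2:**
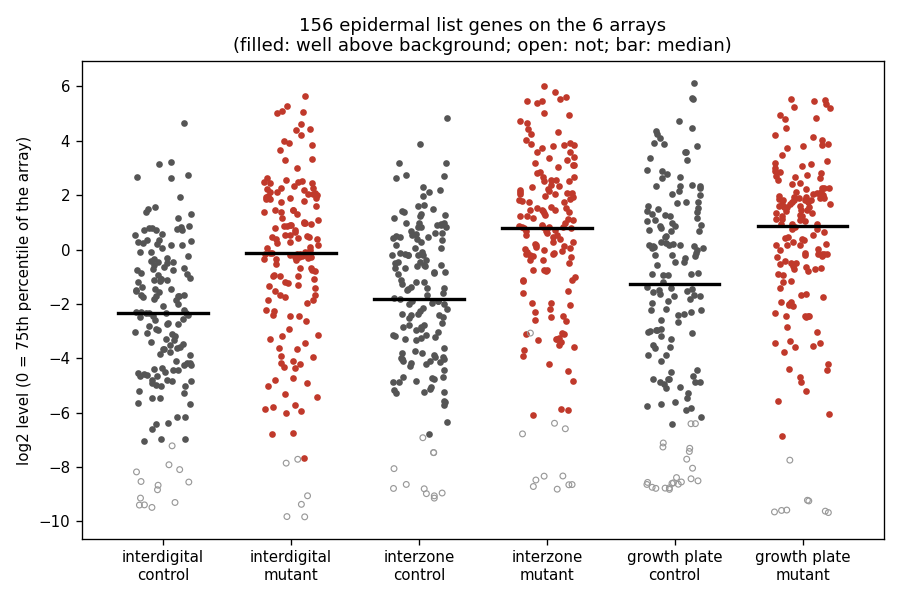
Levels of the 156 epidermal list genes on each of the 6 arrays (log2 relative to the array's 75th percentile), with 1 point per gene, open where the gene was not well above background, and a bar at the median. In interdigital tissue the median is -2.35 on the control array and -0.13 on the mutant array.

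Promoters are shown for 4 of the higher epidermal genes, because members of these lists were higher together and these 4 hold a motif in this window. RefSeq starts of GRCm38.p6 gave a window from 250 bases before to 50 after the start for 53 of the 89 epidermal genes that were at least 2-fold higher, bounds included. The palindrome TGANTCA, the site of AP-1 factors, was found in 14 of the 53 (26.4%), in 8 of 46 other epidermal list genes (17.4%), and in 8.97% of all 27025 genes with a window. Among all genes of the array that were at least 2-fold higher or lower, bounds included, the shares were 8.65% and 10.2%. A gene with several starts was counted once if any window held the motif, on either strand. There were 8 motifs searched. TATAAA was in 20.8% of the 53 and in 15.7% of all, GGGCGG in 47.2% and 38.2%, CCAAT in 39.6% and 41.1%, CCGGTT in 9.43% and 7.74%, and GGGTGTGG in 7.55% and 4.09%. Over the 14103 measured genes with a window, TGANTCA was in 7.62%, TATAAA in 12.4% and GGGTGTGG in 4.55%. In those measured genes GGGCGG was in 57.4%, CCAAT in 42.2% and CCGGTT in 10.6%, each a larger share than in the 53. AACCGGTT, whose matches are also matches of CCGGTT, was in 0 of the 53 and in 0.174% of all, and the paired core of the p53 family site in 0 of the 53 and in 0.833% of all. A match is a run of letters and not a bound site, and the motif and the genes shown were chosen after their values were seen. Each line gives 120 bases from within the 250 before the start, 5′ to 3′ on the gene's strand, with the TGANTCA match in capitals. Krt13 lies at chr11:100120578-100120697 on the minus strand with the match 34 bases before the start, Krtdap at chr7:30787768-30787887 on the plus strand (81 bases), Lor at chr3:92083143-92083262 on the minus strand (48 bases), and Sprr1b, a small proline-rich envelope gene, at chr3:92438827-92438946 on the minus strand (111 bases).
Krt13: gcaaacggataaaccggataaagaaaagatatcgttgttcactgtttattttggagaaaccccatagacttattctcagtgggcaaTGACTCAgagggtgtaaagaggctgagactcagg
Krtdap: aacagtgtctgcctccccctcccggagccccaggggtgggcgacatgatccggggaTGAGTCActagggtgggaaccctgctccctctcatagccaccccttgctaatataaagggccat
Lor: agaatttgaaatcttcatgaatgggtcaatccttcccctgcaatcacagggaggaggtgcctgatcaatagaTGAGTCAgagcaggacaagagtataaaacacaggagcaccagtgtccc
Sprr1b: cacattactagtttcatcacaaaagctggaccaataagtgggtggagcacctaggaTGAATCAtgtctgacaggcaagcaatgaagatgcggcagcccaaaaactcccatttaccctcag
In the same order the differences between the arrays were 5.07, 4.58, 4.19 and 3.82.

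Positional identity genes split by cluster. Of the 8 genes of the Hoxc cluster, 7 were at least 2-fold higher on the mutant array and 0 lower (median 2.63). Of the 8 measured genes of the Hoxd cluster, 0 were higher and 3 lower (median -0.34). The Hoxb cluster had 3 of 9 higher and 1 lower. Hoxc10, a gene of the hindlimb and posterior trunk, went from -0.64 to 3.68 (19.9-fold), with its other probe differing by 1.87. Hoxc6, Hoxc5, Hoxc13, Hoxc8 and Hoxc9 were between 3.67-fold and 7.53-fold higher, each read by 1 probe and each at or below -0.22 on both arrays, and Hoxc4 was 1.75-fold lower. In the Hoxd cluster, Hoxd4 was 14.3-fold lower, Hoxd12 4.91-fold and Hoxd11 2.23-fold, each by 1 probe. Hoxd9, Hoxd10 and Hoxd13 lay within 2-fold at their brightest probes, and the other Hoxd9 probe differed by -1.25. The limb identity genes Tbx5 of the forelimb and Tbx4 and Pitx1 of the hindlimb were also within 2-fold, at -1.42 and -1.65, 0.37 and -0.09, and -1.03 and -1.20. These pairs of levels were close on both arrays, although the second Tbx5 probe differed by -1.75.

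Limb transcription factors of more proximal territories were higher on the mutant array. Of 40 measured genes in the limb patterning list, 12 were at least 2-fold higher and 3 lower. The list median was 0.31, and it turned to -0.21 when both arrays had to be at or above the median of detected genes. Meis2, a homeobox gene of the proximal limb, went from -2.19 to 2.86 (33.0-fold), and its relative Meis1 from -3.01 to -0.47 (5.85-fold), with both measured probes of Meis1 higher. Shox2, a regulator of proximal limb bones, went from -6.89 to -1.13 (54.2-fold), and Six2, a homeobox gene of tendon and joint progenitors, from -5.65 to 0.25 (59.9-fold). The Iroquois genes Irx3 and Irx5 were 12.7-fold and 9.36-fold higher. In the growth plate pair Meis1 and Meis2 differed by 4.71 and 7.93 in the same direction, while Six2 differed by -0.45 in the interzone and -0.84 in the growth plate and Shox2 by 7.11 and -1.19. Tbx15, a gene of limb mesenchyme and dermis, was 3.05-fold lower (3.46 and 1.85), with 3 of 3 probes between -1.73 and -1.31, and it also differed by -1.76 and -1.45 in the other tissues.

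**Figure D3:**
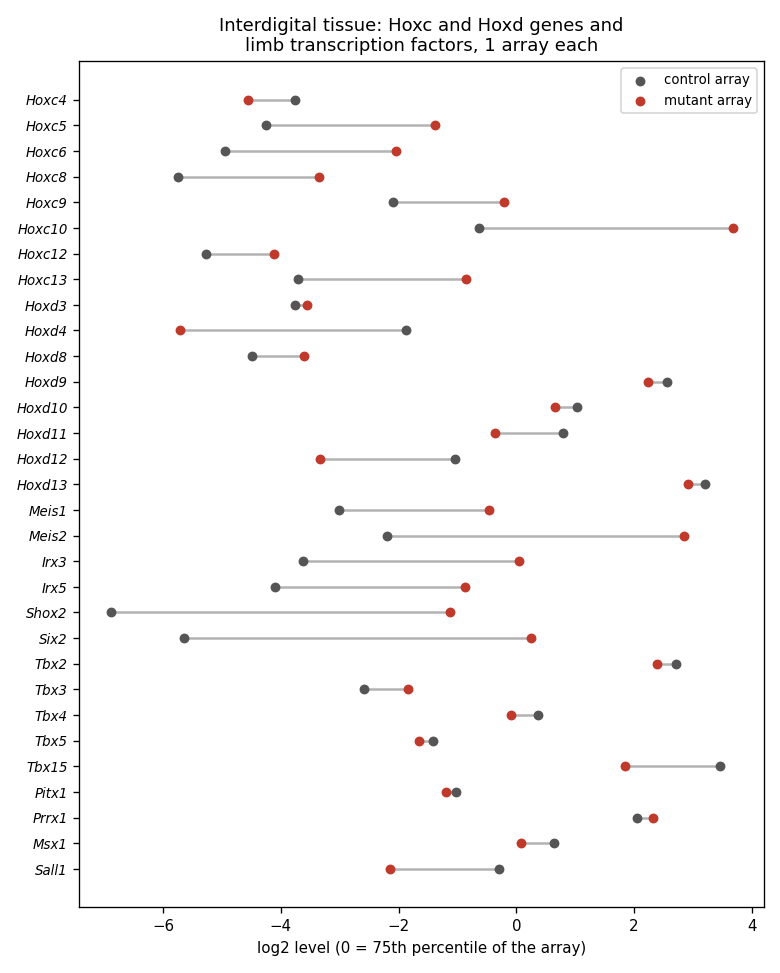
Levels of Hoxc genes, Hoxd genes and limb transcription factors on the control array (grey) and the mutant array (red), log2 relative to the array's 75th percentile, 1 array each. In the Hoxc cluster 7 of 8 genes lie to the right on the mutant array, and Hoxd13, Tbx5 and Pitx1 lie close together on both.

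Wnt pathway genes were the signalling list with the most higher members. Of 52 measured, 16 (30.8%) were at least 2-fold higher and 5 lower (9.62%), against 10.2% and 15.8% of all genes, and the median was 0.19. Over the alternatives that kept the 2-fold threshold, the number of higher members ranged from 1 to 18. The ligand genes Wnt10a and Wnt3 went from -6.96 to -0.39 (95.2-fold) and from -5.02 to 0.73 (54.0-fold), and both also belong to the epidermal lists. Wnt3a was well above background on the mutant array only, at least 62.0-fold higher. Among modulators, Kremen2, a co-receptor of the Dickkopf antagonists, was 40.6-fold higher and the secreted antagonist Sfrp5 37.5-fold. Among targets and nuclear factors of the canonical pathway, the feedback gene Axin2 was 12.1-fold higher, the nuclear partner of beta-catenin Lef1 6.22-fold (-1.99 and 0.64), and its relative Tcf7 3.39-fold. Each of the measured Lef1 and Tcf7 probes was higher. The targets Sp5, Notum and Nkd2 were within 2-fold (0.19, 0.64 and 0.72), and Lgr5 was well above background on the control array only, at least 11.8-fold lower. On the lower side were the ligand Wnt1 (6.65-fold), the receptor Fzd4 (4.24-fold), the feedback inhibitor Nkd1 (3.88-fold) and the R-spondin gene Rspo3 (3.08-fold).

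Targets of TGF-beta were lower on the mutant array or within 2-fold. At least 2-fold lower were 11 of 39 measured genes (28.2%) and 0 were higher, against 15.8% lower and 10.2% higher of all genes. The median was -0.49, beside -0.17 for all genes. Aspn, which encodes asporin, a small matrix proteoglycan, went from 3.46 to 0.16 (9.83-fold lower), on 1 probe. The matricellular genes Ccn2, a classic target formerly called connective tissue growth factor, and Ccn1 went from 3.55 to 2.12 (2.69-fold) and from -0.75 to -2.62 (3.64-fold). Matrix genes followed, with Fbln5 of elastic fibres 2.79-fold lower, Vcan, the versican gene, 2.70-fold, Postn, the periostin gene, 2.25-fold, Eln, the elastin gene, 2.14-fold and Bgn, the biglycan gene, 2.05-fold. The measured probes of Fbln5, Vcan, Postn and Bgn were all lower. Skil, a feedback repressor of SMAD proteins, was 2.46-fold lower and Scx, the scleraxis gene of tendon cells, 2.03-fold. Smad7, a feedback inhibitor of the pathway, was not well above background on either array.

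**Figure D4:**
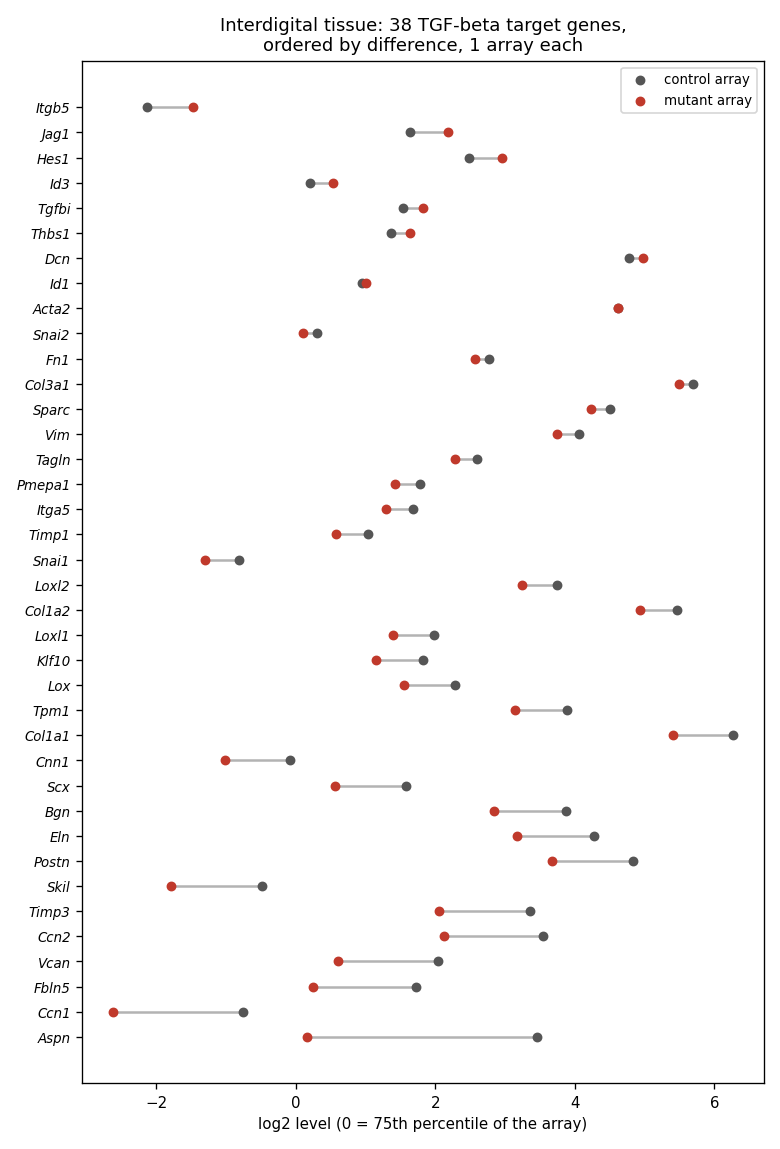
Levels of measured TGF-beta target genes on the control array (grey) and the mutant array (red), log2 relative to the array's 75th percentile, ordered by difference, 1 array each. The lowest rows, from Scx to Aspn, hold the 11 genes that were at least 2-fold lower, and no gene was 2-fold higher.

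Among components of the TGF-beta and activin pathway 4 of 32 were higher and 5 lower, and the median of -0.03 turned to 0.13 with the deposited table of ratios. The ligand genes Tgfb1 and Tgfb2 were within 2-fold, at -1.77 and -1.82 and at -1.22 and -0.90, while Tgfb3 went from 2.20 to 1.09 (2.16-fold lower). Tgfbr1, the partner receptor of the deleted one, was 1.18-fold lower, and the signal mediators Smad3 and Smad4 were 1.64-fold and 1.48-fold higher. Smad2, another mediator, was well above background on the control array only at its brightest probe, with a bound of -0.97 (log2). Of the activin genes, the ligand subunit Inhba was 5.34-fold higher (-2.64 and -0.22), the receptor Acvr2b 4.79-fold and the antagonist Fst 2.03-fold. The subunit Inhbb, the receptor Acvr2a and the antagonist Fstl3 were within 2-fold, with differences of -0.04, -0.74 and -0.90. Acvrl1, a receptor of vessel walls, was 4.30-fold lower here, but differed by 7.35 and 6.29 in the interzone and the growth plate.

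The lists for tendon and matrix share members with that of TGF-beta targets: Scx and Aspn are in the tendon list, Bgn, Dcn, Aspn and Vcan in the proteoglycan list, and Col1a1, Col1a2 and Col3a1 in the collagen list. In the list for tendon and ligament 6 of 16 genes were lower and 1 was higher (median -0.58). The thrombospondin genes Thbs2 and Thbs4 were 5.09-fold and 3.64-fold lower, and Tnmd, the tenomodulin gene, 3.19-fold, while Kera, the keratocan gene, was 2.81-fold higher. Of 23 genes for small leucine-rich proteoglycans and hyaluronan 8 were lower and 4 higher (median -0.61), and Omd, the osteomodulin gene, went from 2.60 to -0.33 (7.59-fold lower). The higher members were mostly of hyaluronan turnover, namely the hyaluronidase Hyal1 (5.51-fold) and the synthases Has3 (5.41-fold) and Has2 (3.66-fold, with its other probe at -1.03). Of 29 collagens outside cartilage 5 were lower (17.2%, near the 15.8% of all genes) and 2 higher (median -0.32). Col8a2, a collagen of basement-membrane-like sheets, went from 2.91 to -0.76 (12.8-fold lower) and differed by -3.68 and -3.47 in the other tissues, so that all 3 pairs had it lower. Col1a1, the main fibrillar collagen, was 1.81-fold lower at 6.26 and 5.40, with 3 of 3 probes lower. Of 40 matrix proteases and inhibitors 11 were lower and 3 higher (median -0.33). Mmp9, a gelatinase of osteoclasts and leukocytes, was 15.8-fold lower and Mmp3, a stromelysin, 10.1-fold.

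Skeletal genes were measured on both interdigital arrays. Of 24 measured genes of prehypertrophic cartilage, osteoblasts and mineralization, 12 were lower and 2 higher, and the median of -0.96 was the lowest of the 48 lists. Tnfsf11, which encodes the osteoclast-inducing ligand RANKL, went from -0.45 to -6.85 (84.3-fold lower). Ibsp, the bone sialoprotein gene, was well above background on the control array only, at least 85.4-fold lower. The channel gene Panx3 was 4.28-fold lower, Enpp1, which makes the mineralization inhibitor pyrophosphate, 3.80-fold, and Sp7, the osteoblast factor osterix, 2.83-fold. Runx2, the regulator above osterix, was 2.02-fold higher at its brightest of 4 probes, and the others ranged down to -2.29. The cartilage list had 7 of 27 genes lower and 0 higher (median -0.47). The main cartilage collagen Col2a1 read 5.81 and 5.38, while Chad, the chondroadherin gene, was 4.17-fold lower. The interzone and joint list had 6 of 23 higher and 2 lower (median 0.19). Gdf5, the growth factor of the joint interzone, went from 1.20 to 2.37 (2.26-fold higher), while it differed by -2.25 in the interzone pair and -1.96 in the growth plate pair, and Wnt16, a ligand of joint cells, was 6.00-fold higher.

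**Figure D5:**
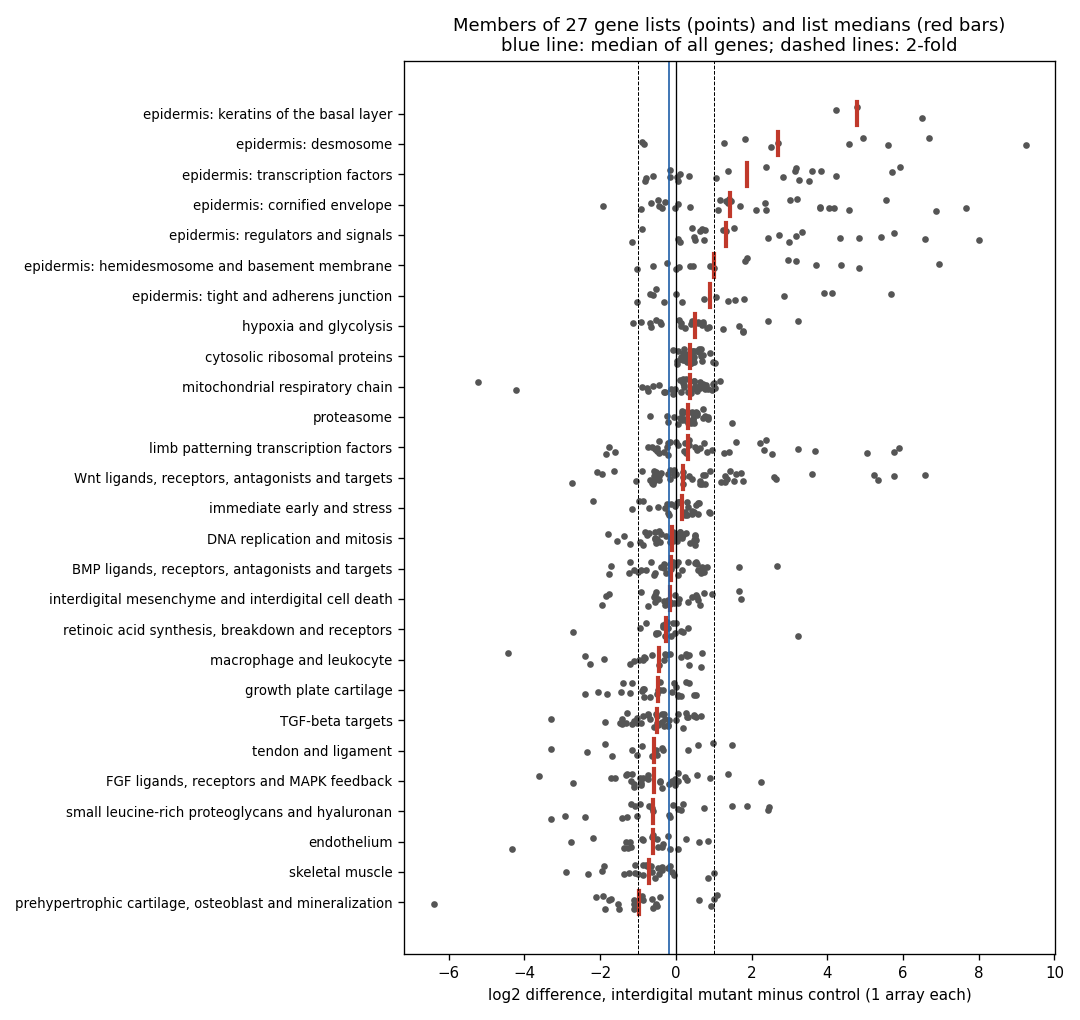
Log2 difference between the mutant and control arrays for each measured member of a gene list (points) and the list's median (red bars), ordered by median, with the median of all genes as a blue line. The epidermal lists drawn lie at the top with medians up to 4.78; the keratins above the basal layer (median 0.30) and those of simple epithelium (-0.38) are not drawn. The lists for bone, muscle, endothelium, matrix and TGF-beta targets lie at the bottom.

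The FGF list had 10 of 32 genes lower and 2 higher (median -0.59). Spry4, a feedback inhibitor of receptor signalling, was 12.3-fold lower (-3.73 and -7.36, both probes lower), and the mesenchymal ligands Fgf7 and Fgf10 were 2.51-fold and 2.47-fold lower, while Spry2 was 2.60-fold higher on 1 of 2 probes. In the BMP list 5 of 35 were lower and 2 higher, and its median of -0.12 turned to 0.05 when both arrays had to be at or above the median of detected genes. Acvr1, a type I receptor, was 2.16-fold lower. Bmp4 read 2.29 and 2.83. Notch genes had 3 of 20 higher and 7 lower (median -0.18). The receptor Notch1, its ligand Jag2 and the nuclear factor Rbpj were 2.98-fold, 2.75-fold and 2.87-fold higher, and the endothelial receptor Notch4 8.36-fold lower. In the hedgehog list 2 of 18 were lower and 0 higher (median -0.27), and the targets Ptch1 and Gli1 read 1.46 and 1.06, and 1.35 and 0.82. In the IGF list 1 of 17 was higher and 1 lower, and Igf1 itself went from 3.92 to 2.29 (3.10-fold lower).

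Genes of retinoic acid and of cell death, which act in interdigital regression, showed no common direction. Of 20 retinoic acid genes 1 was higher and 1 lower (median -0.25). The higher one was Fabp5, a lipid carrier also abundant in epidermis (-0.74 and 2.49, 9.40-fold), and the lower one Cyp26a1, a retinoic acid-degrading enzyme (-2.90 and -5.62, 6.59-fold). Aldh1a2, the synthesizing enzyme of interdigital mesenchyme, read -2.12 and -2.60. Of 36 cell death genes 4 were higher and 6 lower, and the median of 0.06 turned to -0.01 with quantile normalization. Bid and Bad, death activators, and the caspase gene Casp6 were 19.7-fold, 4.55-fold and 2.68-fold higher, but the second probe of Bad differed by 0.32. Hrk, a death activator, was 6.06-fold lower, Apaf1, a caspase activator, 4.02-fold, and the death receptor Fas 3.79-fold, while other probes of Apaf1 and Fas ranged up to 0.31 and 2.00. The direct executioners of mitochondrial death, Bax and Bak1, were within 2-fold. Of 30 genes for clearance of dead cells and lysosomes 4 were higher and 4 lower (median -0.21).

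The lists for vessels, muscle and leukocytes, other cell types that a captured section can hold, had more lower than higher members. Most members of each list stayed within 2-fold. The shares at least 2-fold lower were 36.4%, 34.6% and 26.1%, against 15.8% of all genes and 33.1% of the dimmest 3560. Of 22 endothelial genes 8 were lower and 0 higher (median -0.61). Lyve1, of lymphatic vessels and some macrophages, was 20.0-fold lower, Sox17, an arterial factor, 6.82-fold, the VEGF receptor Kdr 4.53-fold and Pecam1 2.60-fold (2.11 and 0.73), while Cdh5, the endothelial cadherin gene, read 1.37 and 0.74. Prox1 and Flt4, also genes of lymphatic vessels, differed by 0.86 and 0.61. Of 26 skeletal muscle genes 9 were lower and 1 higher (median -0.70). The troponin genes Tnnt3 and Tnni1 were 7.51-fold and 5.03-fold lower with both probes in each, whereas the myogenic regulators Myod1 (3.48 and 3.11) and Myog (-1.83 and -0.98) were within 2-fold. Of 23 macrophage and leukocyte genes 6 were lower and 0 higher (median -0.44). Ptprc, the common leukocyte antigen, was 21.6-fold lower, Pf4 5.23-fold and Lyz2, the lysozyme gene, 4.79-fold, but Csf1r, the macrophage growth factor receptor, read -1.08 and -0.72. Among 14 erythroid genes 2 were higher and 3 lower, with the globin Hba-a1 at 6.74 and 6.52. The higher ones were the globin Hba-x and Alas2, with differences of 3.74 and 1.25. The lower ones were the erythroid factor Klf1 (30.7-fold), Epb42 and Trim10, the last 2 with differences of -1.38 and -1.24. Of 15 nerve and Schwann cell genes 3 were higher and 4 lower (median -0.30), and of 8 melanocyte and Merkel cell genes 0 were higher and 2 lower. The part of these cells in the other differences was not tested.

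Of the immune signalling lists, the interferon response list held a larger share of lower genes than the array, and the chemokine list a similar share. Of 25 interferon response genes 10 (40.0%) were lower and 4 higher, against 15.8% and 10.2% of all genes. The median of -0.50 turned to 0.04 when both arrays had to be at or above the median of detected genes. With that filter, which removes by construction any gene that was dim on either array, 0 members were lower. Slfn5, a Schlafen family gene, went from 0.06 to -6.13 (73.4-fold lower), and Ifi205 was 28.9-fold lower. The viral RNA sensors Ifih1 and Ddx58 were 6.25-fold and 5.72-fold lower and Irf7, the factor that amplifies interferon, 5.04-fold, although the probes of Ddx58 ranged up to 0.19. The measured higher members were Gbp2, Ifit3, Ifitm1 and Usp18, with differences of 2.21, 1.58, 1.525 and 1.33. Isg15 and Ifit2, of the same list, differed by 0.06 and 0.03. Of 30 chemokines and receptors 6 were lower and 3 higher (median -0.56). Ccl11, the eotaxin gene, was well above background on the control array only and at least 115-fold lower, and Cxcl14, a chemokine of epithelia, was 4.22-fold higher. Guidance genes had no common direction, with 6 of 46 higher and 6 lower. Ephb6, an Eph receptor, was 17.0-fold higher and the repellent Sema3a 4.84-fold lower, with its probes between -2.28 and 0.52.

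Genes of general cell function differed little. None of 13 housekeeping genes was past 2-fold, with Gapdh at 4.75 and 4.89 and Actb at 4.68 and 4.42. The medians were 0.38 over 45 cytosolic ribosomal protein genes, 0.32 over 31 proteasome genes and 0.36 over 40 respiratory chain genes, with 1, 1 and 3 members higher. Lower respiratory chain members were Romo1 (-0.33 and -5.57, 37.7-fold) and Ndufv1 (0.53 and -3.69, 18.7-fold), each on 1 probe, which stood far apart from the rest of their list. Of 41 genes for DNA replication and mitosis 0 were higher and 4 lower, and the proliferation marker Mki67 read 2.24 and 2.15. Of 30 immediate early and stress genes 0 were higher and 2 lower. In the hypoxia and glycolysis list 6 of 26 were higher and 1 lower (median 0.50). Car12, a carbonic anhydrase gene, was 9.28-fold higher, Adm, the adrenomedullin gene, 5.44-fold, and the glucose transporter Slc2a1 3.44-fold (-0.96 and 0.82), while the VEGF gene Vegfa read 2.02 and 2.15.

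Beyond the lists, other genes with large differences on the mutant array included Endou, a placental and epidermal endonuclease gene (-6.90 and 1.01, 240-fold), Capns2, a calpain subunit (107-fold), Adgrg1, an adhesion receptor (94.4-fold), Cpxm2, a carboxypeptidase-like gene (-3.71 and 2.80, 91.6-fold), Eppk1, the epiplakin gene (89.9-fold), and Alox12, a lipoxygenase (88.2-fold). For Cpxm2 3 of 3 probes were higher by at least 3.45. The brightest genes seen on the mutant array only included Olah, a thioesterase gene (at least 297-fold), Slc16a14, a transporter gene (at least 156-fold), and Calm5, a calmodulin-like gene (at least 152-fold). On the lower side were C1qtnf9, an adiponectin-like secreted protein gene (1.07 and -5.63, 104-fold, the other probe at -4.36), Rftn1, a raft protein gene (0.02 and -6.59, 97.7-fold, the other probe at -2.56), and Mvp, the major vault protein gene (23.0-fold). Ostn, a hormone gene of muscle and bone, was seen on the control array only (at least 157-fold lower). The lower genes named here were at or below 1.07 on both arrays.

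Some sex-linked genes differed between the arrays. Xist, the RNA gene that silences an X chromosome in female cells, went from 4.14 on the control array to -6.67 on the mutant array, the largest lower difference of any measured gene (-10.81), and its antisense partner Tsix went from 2.54 to -2.09 (24.8-fold lower). These genes overlap on opposite strands, and the labels do not say whether the amplified product kept its strand, so the 2 readings may not be separate. Uty, Eif2s3y and Kdm5d were well above background on the mutant array only, at least 73.9-fold, 79.9-fold and 32.0-fold higher, and Ddx3y went from -5.42 to -1.65 (13.6-fold). The Y-linked genes Sry, Zfy1 and Zfy2 were well above background on both arrays and differed by -0.06, -0.44 and 0.06, and Usp9y was above it on neither. The 3 control arrays of the series lacked a signal above background for Uty, Eif2s3y and Kdm5d and all 3 mutant arrays had one. Xist was also lower on the mutant array in the interzone and growth plate pairs, by -8.58 and -9.75. These sex-linked signals went with genotype in all 3 pairs. The part of the embryos' sex in the other differences thus cannot be told apart from genotype, and it was not tested.

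The interdigital pair had the narrowest spread of the 3 tissue pairs, which share no array with each other. At least 2-fold higher or lower were 17.5% and 23.1% of 16676 genes in the interzone and 22.3% and 32.1% of 16173 in the growth plate, against 10.2% and 15.8% here. Over genes measured in both pairs, 581 of the 1560 higher interdigital genes (37.2%) were also higher in the interzone, which is 20.2% of the interzone's 2878, and 369 (23.7%) were lower there. Of 2437 lower interdigital genes 757 (31.1%) were lower in the interzone and 440 (18.1%) higher. In the growth plate 591 of 1462 higher genes (40.4%) and 957 of 2383 lower genes (40.2%) went the same way. More genes were shared in direction than opposed in each of these comparisons. The epidermal lists had 91 of 141 genes higher in the interzone and 62 of 132 in the growth plate, so that their higher level on the mutant array was not particular to interdigital tissue.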

How the data were processed

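Gene expression was measured on 1 one-colour Agilent array per tissue and genotype, 6 arrays in all. Per the file headers, Agilent Feature Extraction 9.5.1.1 read the arrays, and the deposited scanner files give each spot's intensity, background-subtracted in the processed column. The table deposited by the authors holds a ratio, the processed signal divided by the array's median, as found by setting it against the scanner files, and its columns have a median of 1. No build is named for the probe positions.

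Control spots and outlier-flagged spots were left out and spots of a probe averaged, giving 41174 probes. Names came from a RefSeq table of GRCm38.p6 by accession (23082 probes), symbol (6582) or older symbol (3073), and 8437 probes stayed unnamed. The level was the log2 of the processed signal less its 75th percentile on that array, a gene was read by the probe brightest on average over the 6 arrays, and no spot was saturated. A gene well above background on 1 array only has a bound, set against its own dim signal or the smallest signal that passed the background mark there, whichever was higher. With 1 array a group no test was run. The 48 gene lists, with 1269 entries, and the members named were chosen with earlier results of these data known. Named were the 15 largest differences in each direction whose brighter array was at or above the median of detected genes and whose probes went the same way, the 6 brightest bounds in each direction, list members and Tgfbr2. Some results that this rule gave are not reported here, and for length not every named gene is printed. Counts and medians were checked on simulated differences. Alternatives were other percentiles, quantile normalization, normexp background correction with an offset of 50 in limma 3.58.1 (R 4.3.3), the deposited ratios, the mean over probes, other filters and a 4-fold threshold, with Python 3.11.15 for the rest. Spots of 1 probe differed by a median SD of 0.072 on the control array and 0.089 on the mutant array (log2), which covers the array reading only and not the amplification, the capture or the embryos.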

Additional observations from a re-analysis of the deposited data

Results flagged for a closer look

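Several list medians had the opposite sign in another tissue pair, and the endothelial and skeletal muscle lists had the medians farthest from 0 on both sides. Each pair had 1 array a side, and the differences were not tested. The endothelial list had a median of -0.61 in interdigital tissue, 0.99 in the interzone and 0.81 in the growth plate. The skeletal muscle list had a median of -0.70 in interdigital tissue and 0.85 in the interzone.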

How the results depend on the processing

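All 8 alternatives set at the start were run, and 1 more, the restriction to genes whose measured probes all go the same way, was chosen after seeing the data. Where both arrays had to be at or above the median of detected genes, 422 genes were higher and 380 lower, and 17 epidermal members were higher with a median of 0.62; this filter removes by construction any gene that was dim on either array. With a 4-fold threshold 599 genes (3.37%) were higher and 685 (3.85%) lower. Higher genes made up 39.2% of those past 2-fold, which became 49.6% with quantile normalization, 51.3% with the deposited ratios and 52.6% with that filter. Under the other alternatives the counts of higher and lower genes and of higher epidermal members stayed within 1.5 times those reported. Of the 48 list medians, 36 kept their sign under every alternative and 12 did not. With 1 array a group no replicate could be left out. No paired analysis was possible because each group had 1 array. What amplification, capture, slide or the sex of the embryos added to the differences cannot be told apart from genotype in this pair.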

Other observations

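Genes outside the lists whose probes went the same way by a wide margin were chosen after their values were seen. Higher on the mutant array were Lratd1 (58.7-fold, 2 probes), the alcohol dehydrogenase gene Adh1 (20.3-fold), the cystatin-like gene Cstdc6 (17.3-fold, 3 probes), the gap junction genes Gjb2 and Gjb6 of epidermis (16.7-fold and 8.37-fold), Calm4 (9.99-fold), Cebpa (7.78-fold) and the Wnt inhibitor gene Apcdd1 (7.61-fold). In the interzone pair Adh1, Gjb2, Gjb6 and Cstdc6 differed by 9.76, 4.66, 3.41 and 3.33 in the same direction. Lower were Ecm2, a matrix gene (34.2-fold), Pkn3 (10.6-fold), the antigen-presentation gene H2-Aa (8.63-fold), the Fc receptor gene Fcgr2b (8.08-fold) and Fabp4, a lipid carrier of fat and vessels (4.25 and 1.48, 6.81-fold, 3 of 3 probes lower).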
